A study of Mus musculus with 9 samples.

Results

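The genes described here encode the proteins of the cytosolic ribosome. They were taken by name: large-subunit genes (Rpl, with Rplp0, Rplp1 and Rplp2) and small-subunit genes (Rps, with Rpsa), with pseudogenes named -ps left out. The rule found 87 of the 32137 genes in the count tables, 51 of the large and 36 of the small subunit, and used no measured value. By the GENCODE annotation 81 are protein-coding and 6 are processed pseudogenes without a -ps name (Rps3a2, Rps3a3, Rps4l, Rps12l1, Rpl6l, Rpl32l). RNA was sequenced from sorted cells of differentiated bile duct organoids of mixed genetic background, all from a single male Axin2CreERT2+/-; R26-LSL-tdTom+/- mouse, so the spread between libraries is that of repeated cultures and not of animals. In this genotype a tamoxifen-dependent Cre is made under control of Axin2, a Wnt target gene, and Cre switches on the red reporter tdTomato. Every organoid had 2 to 4 days of expansion. All received 3 uM dexamethasone and 500 nM 4-hydroxytamoxifen in the last 24 h of an 11-day differentiation, the controls included. Untreated_Axin2neg cells (untreated) were tdTomato-negative and had no R-spondin 1 (Rspo1), a secreted protein that amplifies Wnt signalling. Rspo1_Axin2neg cells (Rspo1-negative) and Rspo1_Axin2pos cells (Rspo1-positive) were the tdTomato-negative and tdTomato-positive cells of organoids given 100 ng/ml Rspo1. Each group had 1 library at each of passages 5, 6 and 10. Passage was a term in the fit. A tdTomato-positive untreated group was not analysed here.

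The cytosolic ribosome translates all mRNAs made in the nucleus. Its small subunit reads the message and its large subunit joins amino acids, and the P-stalk of the large subunit calls in the elongation factors. Ribosomal protein genes are among the most strongly transcribed genes of a cell, and most of their products are needed in equal amounts. Their mRNAs begin with a run of pyrimidines, the terminal oligopyrimidine tract, through which mTOR signalling controls how much of them is translated, so an mRNA level does not give the amount of protein made.

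Start-site sequences from RefSeq (GRCm38.p6) were found for 62 of the 87 members. The examples below run from 45 bases before the annotated start to 14 bases after it, 5′ to 3′ on the gene's strand. Capitals mark the pyrimidine tract, defined as a C followed by at least 5 pyrimidines and beginning within 10 bases of the annotated start. The first 5 belong to genes with a tract that the results below turn on, and the last 4 to the genes that departed from the rest of the family. Of these Rpl22l1 had a tract by this definition, and Rpl23, Rpl7l1 and Rpl4 had none. Rpl4 and Rpl7l1 have such a run of pyrimidines further upstream, which begins more than 10 bases before the annotated start and is not marked.
Rps10, minus strand, chr17:27635230-27635289: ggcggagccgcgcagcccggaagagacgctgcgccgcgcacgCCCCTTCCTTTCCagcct
Rpl13a, minus strand, chr7:45128731-45128790: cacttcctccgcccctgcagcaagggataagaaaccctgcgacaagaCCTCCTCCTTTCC
Rps27, minus strand, chr3:90213634-90213693: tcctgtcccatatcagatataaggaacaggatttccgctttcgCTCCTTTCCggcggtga
Rplp2, plus strand, chr7:141447606-141447665: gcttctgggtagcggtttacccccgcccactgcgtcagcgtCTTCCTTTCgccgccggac
Rpl15, minus strand, chr14:18270972-18271031: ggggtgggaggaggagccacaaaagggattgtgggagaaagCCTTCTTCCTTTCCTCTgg
Rpl23, minus strand, chr11:97782425-97782484: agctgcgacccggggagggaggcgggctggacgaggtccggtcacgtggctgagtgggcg
Rpl7l1, minus strand, chr17:46782642-46782701: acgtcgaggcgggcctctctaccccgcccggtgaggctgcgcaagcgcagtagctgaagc
Rpl22l1, plus strand, chr3:28805463-28805522: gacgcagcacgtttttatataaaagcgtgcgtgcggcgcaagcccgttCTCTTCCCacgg
Rpl4, plus strand, chr9:64173342-64173401: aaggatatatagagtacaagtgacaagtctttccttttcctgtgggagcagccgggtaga

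A tract of this kind was present at a start of 34 of the 62 members, 54.8%, against 21.9% of the 27025 genes in the same table. Over the whole 300-base window and on both strands, CCGGAAG, a form of the ETS-factor motif, was found in 25 members, 40.3%, against 9.93% of all genes. GCCATNTT, a form of the YY1 motif, was found in 13 members, 21%, against 6.96%. TATAAA was found in 8 members, 12.9%, against 15.7%. A match is a description of the letters and not a binding site. The share with a tract depends on where the start is annotated.

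Total counts ranged from 23423979 to 37351448 per library, and 17011 genes passed the filter on low counts, among them 83 members. The members that did not pass were Rpl3l, Rps12l1, Rpl6l and Rpl32l, with at most 16 counts in any library. Rps3a2 and Rps3a3 passed with 4 to 20 counts per library, so little can be read from their values. Axin2 had 1.32, 1.74 and 5.96 CPM (read counts scaled to library size with TMM factors) in the untreated libraries at passages 5, 6 and 10, 44.4, 97.4 and 124 CPM in the Rspo1-negative ones and 75.7, 88.7 and 155 CPM in the Rspo1-positive ones. The 2 Rspo1 groups overlapped in Axin2 mRNA (log2 difference 0.31 ± 0.22 (SE), edgeR adjusted p = 0.28), so "Axin2neg" names the reporter state and not the transcript. The biliary markers summed to between 13972 and 19967 CPM in every library. The summed hepatocyte markers had 327 to 724 CPM, carried by Ttr and Hnf4a, with Cps1 and Cyp3a11 at or near 0. Of the lists for other cells, endothelial markers stayed under 1 CPM in sum with Cdh5 at 0. The mesenchymal list summed to 6.94 to 66.7 CPM, carried by Reln, with Lum at 0. Its sums by group are given below. The immune list had 56.1 to 77 CPM, carried by the myeloid genes Csf1r (group means 47.5, 44.4 and 42.7 CPM in untreated, Rspo1-negative and Rspo1-positive cells), Cd68 (13.2, 12.7 and 7.68) and Itgam (8.53, 8.71 and 9.45). Ptprc, carried by all white blood cells, was under 0.1 CPM in each group's mean.

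Levels were compared between genes by the deposited FPKM, which are scaled to length. Among the 77 core genes (protein-coding members without the 4 paralogs Rpl3l, Rpl7l1, Rpl22l1 and Rps27l) the median over the 9 libraries was 374 FPKM. The highest were Rplp1, a P-stalk protein, with 2028 FPKM, Rpl8 with 1184, Rplp0, the base of the stalk, with 1182, and Rps15 with 1178. The lowest were Rpl35a with 50.2, Rps15a with 62.6, Rpl15 with 101 and Rps28 with 105 FPKM. FPKM divides by annotated length, and the annotated transcripts of Rps15a (5179 bases) and Rpl15 (1922 bases) are long for this family, whose tested members had a median of 878 bases. The paralogs were lower than their parents: Rpl22l1 had 33.5 FPKM against 155 for Rpl22, Rpl7l1 38 against 463 for Rpl7, Rps27l 176 against 540 for Rps27, and Rps4l 29.8 against 590 for Rps4x. Rpl3l, the muscle form of Rpl3, had 0.0364 FPKM against 440.

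As a whole, the members took a larger share of counts in Rspo1-negative cells. The untreated libraries gave 3.29, 3.22 and 2.98% of counts at passages 5, 6 and 10, the Rspo1-negative libraries 5.58, 3.53 and 5.09%, and the Rspo1-positive libraries 3.49, 2.67 and 3.36%. Every Rspo1-negative library lay above every library of the other groups, narrowly so at passage 6. The group means were 3.17% ± 0.16 (SD, n = 3), 4.74% ± 1.1 and 3.17% ± 0.44 in that order. The exact two-sided permutation test gave p = 0.1 for Rspo1-negative against either other group, the smallest value that 3 against 3 libraries allow, and p = 1 for Rspo1-positive against untreated. In bulk samples, fewer cells of a type and less RNA per cell cannot be told apart.

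Counts of 3 overlapping genes at an rRNA locus on chromosome 17 (CT010467.1, Gm42418, AY036118) also differed between libraries. They took 0.499 to 20.9% of counts and were highest in the Rspo1-positive library of passage 6, with 20.9%, and the Rspo1-negative library of passage 6, with 16.9%. Without these 3 genes the members' share at passage 6 was 3.40% in untreated, 4.25% in Rspo1-negative and 3.37% in Rspo1-positive cells. The Rspo1-negative mean without them was 5.05% ± 0.74 against 3.25% ± 0.19 in untreated and 3.54% ± 0.19 in Rspo1-positive cells (SD, n = 3). The part of the locus in the members' shares was not tested beyond this.

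**Figure D1:**
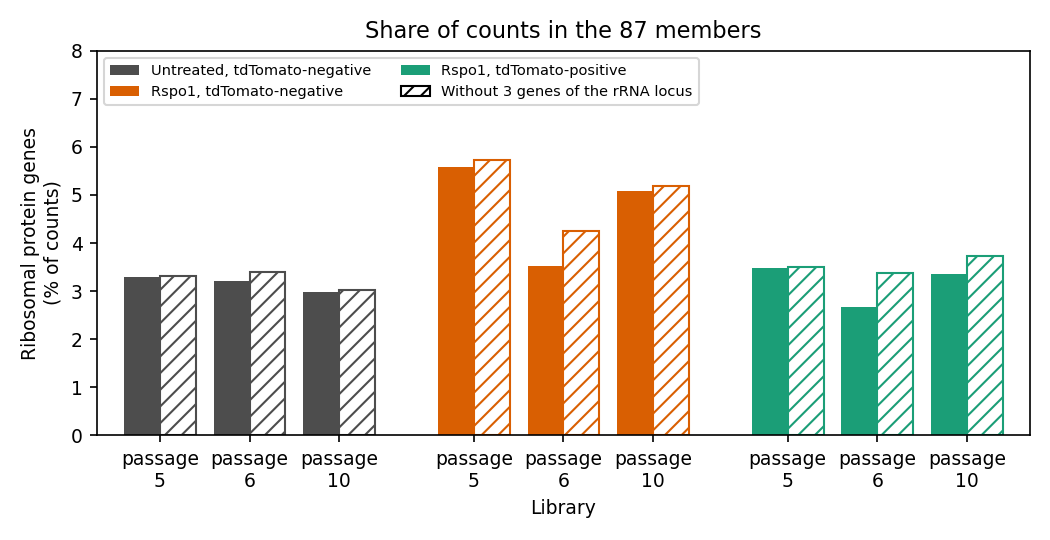
Share of all counts held by the 87 ribosomal protein genes (vertical axis, %) in each of the 9 libraries; filled bars use all counts and hatched bars leave out the 3 genes of the rRNA locus. The 3 Rspo1-negative libraries, 3.53 to 5.58%, lie above the 6 others, and removing the locus raises the passage 6 bars of both Rspo1 groups most.

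With passage as a block and TMM scaling, 72 of the 83 members tested rose in Rspo1-negative cells against untreated cells, and none fell. Of all 17011 genes 15.5% rose and 20% fell in that comparison. The members' median log2 fold change was 0.60 (quartiles 0.52 and 0.70), a fold of 1.51, beside a median of -0.01 over all genes. Both subunits took part: 41 of 48 large-subunit genes (median 0.61) and 31 of 35 small-subunit genes (median 0.60). In CPM, 75 members had no overlap between the 2 groups, all higher in Rspo1-negative cells, against 16.4% of all genes. Reln, which carried the mesenchymal list, moved too: the summed list had 7.34 to 18.7 CPM in untreated, 19.3 to 66.7 in Rspo1-negative and 6.94 to 45.4 CPM in Rspo1-positive libraries, with 8 of its 10 genes in the files. Cycling markers were also higher in Rspo1-negative than untreated libraries for 8 of 10 genes. The part of either in the members' values was not tested.

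Among the largest rises were those of Rps2, Rpl36, Rpl13a, Rps14 and Rps10. Rps2, at the mRNA entry channel of the small subunit, had 575, 713 and 534 CPM in untreated libraries at passages 5, 6 and 10, 1175, 969 and 1102 CPM in Rspo1-negative ones and 585, 697 and 696 CPM in Rspo1-positive ones. All 3 Rspo1-negative values were above the other 6. The log2 fold change against untreated was 0.84 ± 0.16 (SE, edgeR quasi-likelihood adjusted p = 0.00288). Rpl13a, known also for a role outside the ribosome in silencing inflammatory mRNAs, had 816, 872 and 731 CPM, then 1679, 1145 and 1547 CPM, then 805, 727 and 825 CPM in the same order. Its log2 fold change was 0.84 ± 0.17 (adjusted p = 0.00322), again with no overlap between Rspo1-negative libraries and the rest. Rps14, whose loss in people underlies the anaemia of the 5q- syndrome, rose by 0.84 ± 0.17 (adjusted p = 0.00369), from 491 ± 49.5 to 887 ± 171 CPM (SD, n = 3). Rpl36 and Rps10 rose by 0.84 and 0.78 on the log2 scale. The exons of Rpl13a and Rps10 overlap other annotated genes on the same strand over 35.4 and 28.7% of their length, so how reads were shared there is uncertain. The same holds for Rpl24 on its own strand, and for Rpl35, Rpl23a, Rpl5 and Rpl31 with genes on the opposite strand, each over more than 25% of its exons.

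**Figure D2:**
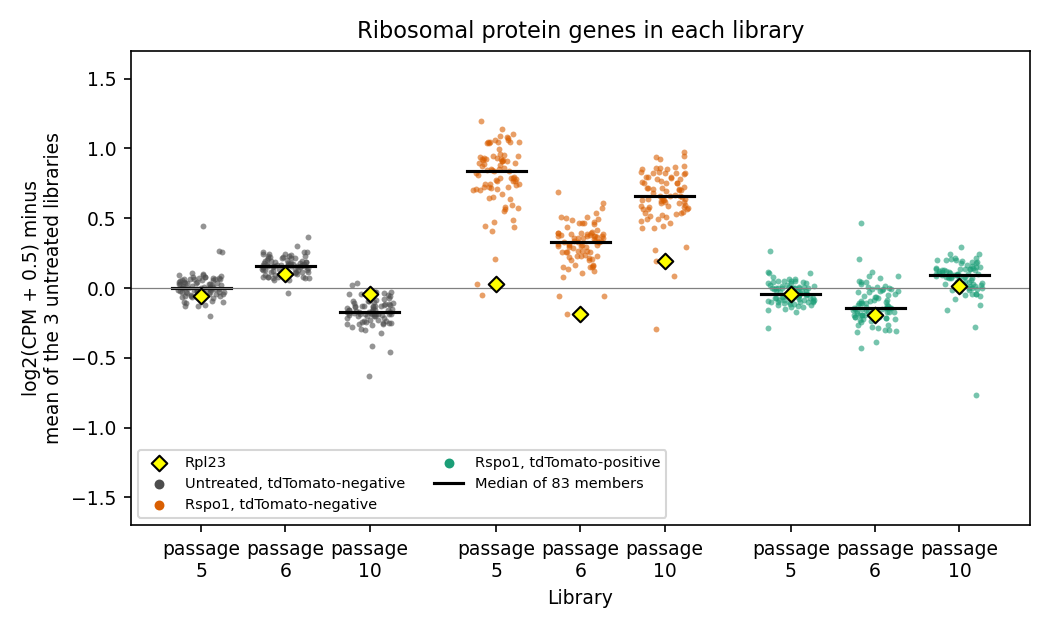
Each point is one of the 83 members tested; the vertical axis is log2(CPM + 0.5) minus the mean of the 3 untreated libraries, and black bars are medians by library. The Rspo1-negative medians are 0.84, 0.33 and 0.66 at passages 5, 6 and 10 and the Rspo1-positive ones -0.04, -0.14 and 0.09; Rpl23 (diamonds) stays with the untreated level.

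The P-stalk genes and Rpsa, the laminin receptor and small-subunit protein SA, followed the family. Rplp0, Rplp1 and Rplp2 rose by 0.65 ± 0.18, 0.74 ± 0.19 and 0.75 ± 0.18 (log2, SE), and Rpsa by 0.74 ± 0.16. Rplp1 had 838, 981 and 668 CPM in untreated and 1576, 1149 and 1418 CPM in Rspo1-negative libraries, with no overlap. Of ribosomal genes outside the name rule, Fau, the precursor of small-subunit protein eS30, rose by 0.76 ± 0.16, and Rack1, a scaffold on the small subunit, by 0.74 ± 0.18. Rpl36al, a retrotransposed copy of Rpl36a, had 0.32 ± 0.13 and did not pass (adjusted p = 0.0835). In the fit that takes out GC and length effects, described below, Rack1 kept its call at 0.53 (adjusted p = 0.0278), and Fau, at 0.30 (adjusted p = 0.147), did not.

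The size of the difference varied from passage to passage. With 1 library per group at each passage, an effect of passage cannot be told apart from that of a single library. Within passages the members' median log2 difference between Rspo1-negative and untreated cells was 0.82 at passage 5, 0.17 at passage 6 and 0.83 at passage 10. At passage 6, 77 of the 83 members were higher, at passages 5 and 10 82 and 83. Rps2 kept a passage 6 value of 969 against 713 CPM, while Rpl36 had 210 against 173 CPM there and 376 against 175 at passage 5. Without passage 6, 80 of 82 members tested rose, with a median of 0.86. The number called fell to 13 without the Rspo1-negative library of passage 5, to 18 and 29 without the untreated libraries of passages 5 and 10, and to 28 without the Rspo1-negative library of passage 10. The members' median stayed between 0.49 and 0.81 in these and the other single-library omissions.

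**Figure D3:**
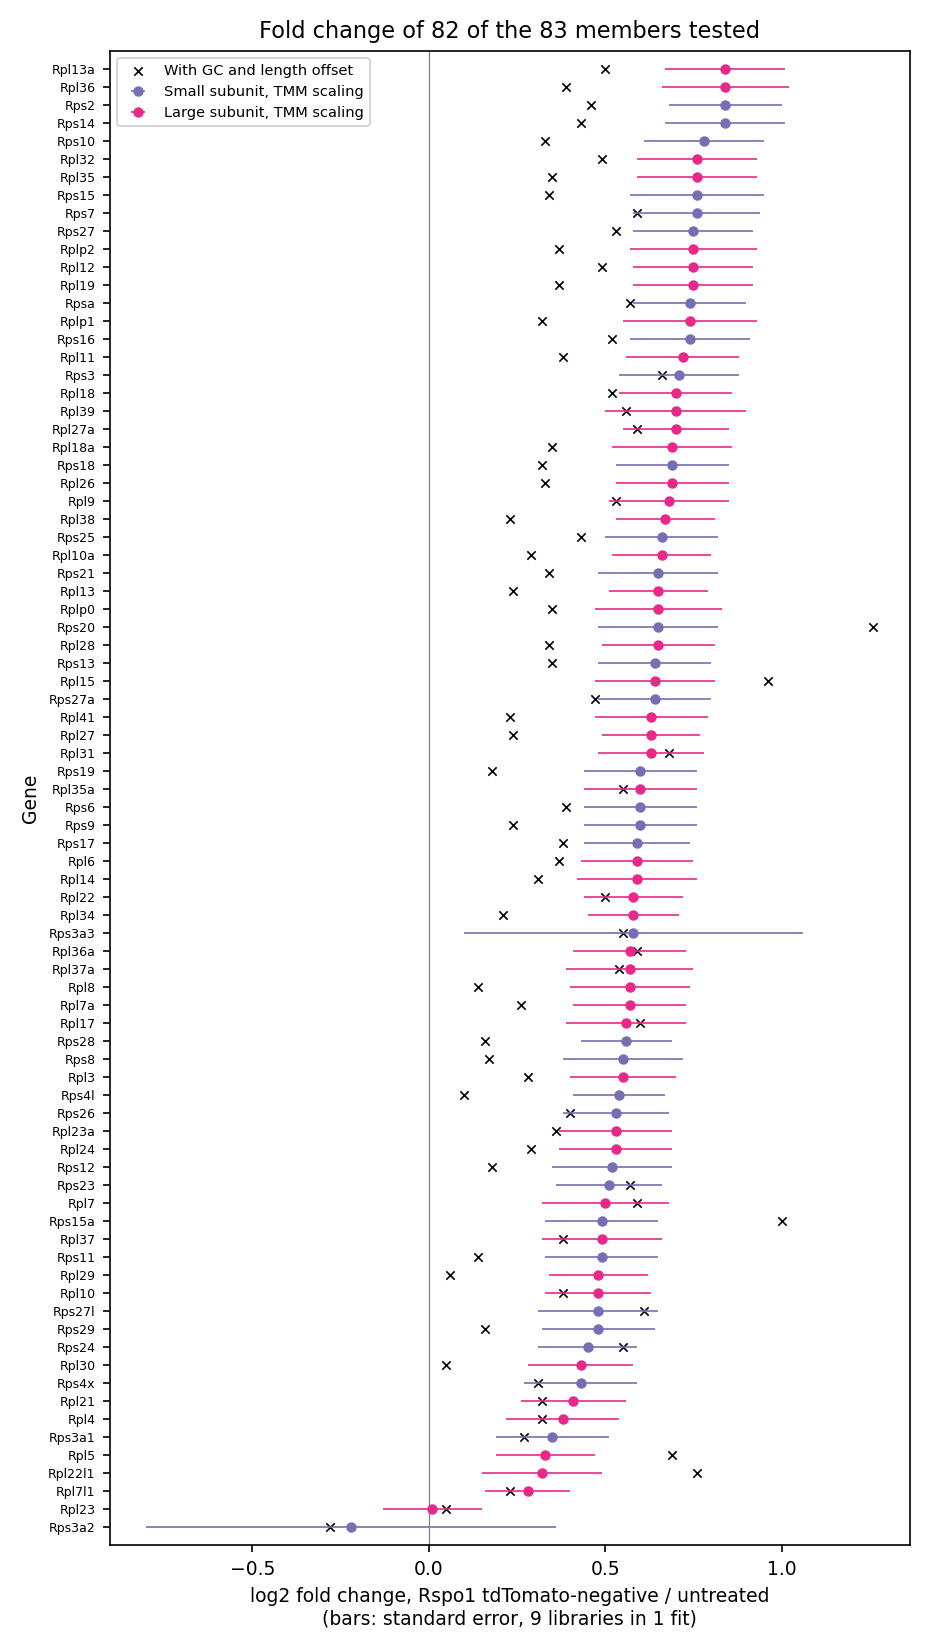
Log2 fold change of 82 of the 83 members tested, Rspo1-negative over untreated (horizontal axis), with its standard error as bars, for small-subunit and large-subunit genes; crosses are the values with the GC and length offset. The middle 50% of members lie between 0.52 and 0.70 with TMM scaling, while Rpl23 lies at 0.01; Rps20 has its cross at 1.26.

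The transcripts of this family are short, and the Rspo1-negative libraries carried a trend of counts with transcript GC content and length. The tested members had a median length of 878 bases and a median GC of 51.5%, against 2577 bases and 50.4% over all tested genes. From GC and length alone, a smooth trend estimated on the other genes gave the members a median log2 fold change of 0.24 (range -0.61 to 0.45) for Rspo1-negative against untreated, where 0.60 was measured. With this trend removed as an offset in the fit, the median was 0.37, a fold of 1.29, and 35 of 83 members rose, against 9.57% of all genes. Rps2 kept a rise of 0.46 ± 0.13 (adjusted p = 0.0344), as did Rpl13a with 0.50 ± 0.13, Rps14 with 0.43 ± 0.14 and Rpsa with 0.57 ± 0.14. The 3 P-stalk genes, at 0.35, 0.32 and 0.37, and Rpl36 and Rps10 no longer passed. Across the 83 members the rank correlation of the log2 fold change with GC was 0.48 before the offset and -0.62 after it, a description over genes that share libraries. The number of members called with the offset was 7 without the Rspo1-negative library of passage 5 or of passage 10, and 9 and 12 without the untreated libraries of those passages. It was 75 without the untreated library of passage 6.

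The offset moved some members up. Rps20 and Rpl15 went from 0.65 and 0.64 to 1.26 and 0.96, Rps15a rose from 0.49 to a value between these, and Rpl5 and Rpl22l1, which had not passed with TMM scaling, reached 0.69 (adjusted p = 0.00397) and 0.76 (adjusted p = 0.00393). These 5 genes had the lowest trend values, between -0.61 and -0.32, and annotated transcripts of 40.6 to 45.4% GC and, apart from Rpl22l1 with 552 bases, of 1922 to 5179 bases. Which isoform was present in the cells was not tested.

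**Figure D4:**
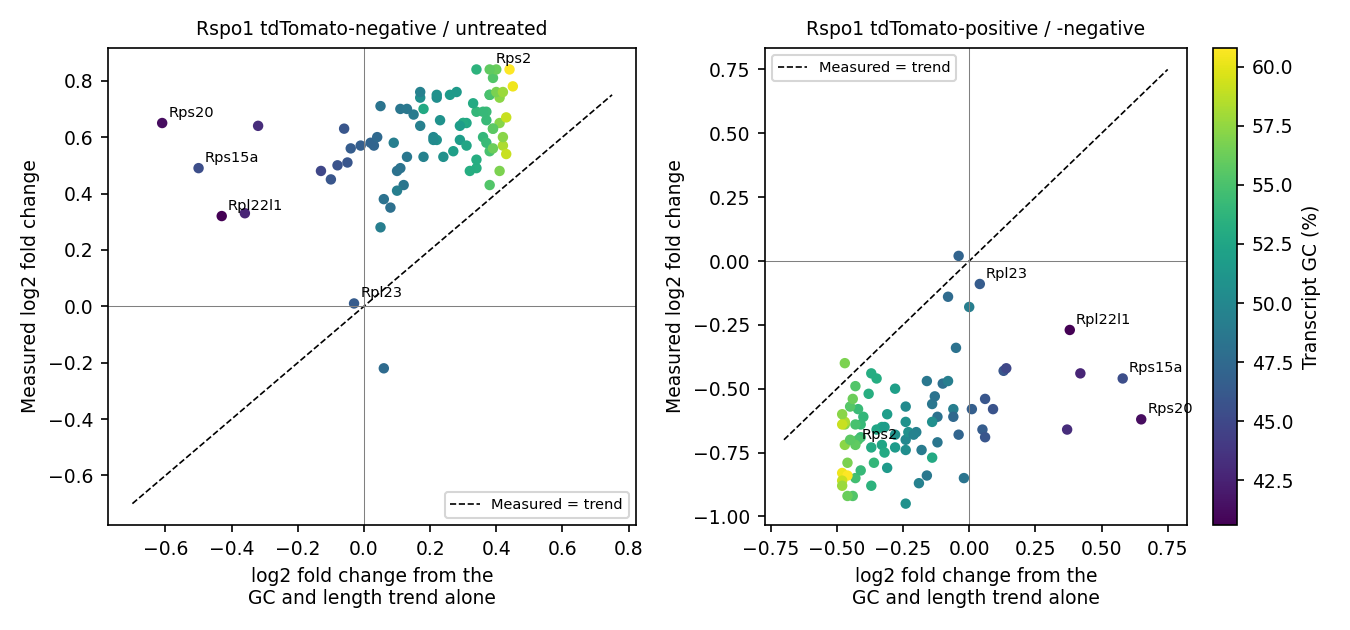
Measured log2 fold change of the 83 members (vertical axis) against the value that GC content and length alone give (horizontal axis), coloured by transcript GC, for both comparisons with Rspo1-negative cells; on the dashed line the 2 are equal. Nearly all members lie beyond the trend, above the line on the left and below it on the right, and Rpl23 lies close to the line on the left.

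Rspo1-positive cells, sorted from the same organoids, had lower levels than Rspo1-negative cells. Of the 83 members 75 fell and none rose, against 17.4% of all genes that fell and 21.5% that rose. The median log2 fold change was -0.64 (quartiles -0.73 and -0.54), beside 0.03 over all genes. Both subunits were lower, 44 of 48 large-subunit genes and 31 of 35 small-subunit genes. In CPM 75 members were lower with no overlap, against 20.6% of all genes. This comparison and the one above share the Rspo1-negative libraries, so they are not independent. The summed biliary markers, 17416 to 19967 CPM in Rspo1-negative and 13972 to 14168 CPM in Rspo1-positive libraries, were lower too. Of 10 dissociation-response genes, which are switched on when tissue is taken apart, 4 rose in Rspo1-positive cells, Fosb, Egr1, Fos and Jun, by 3.38, 2.22, 1.82 and 0.91 on the log2 scale, and 1, Hspa1a, fell by 0.76. Their summed level was 692 to 1225 CPM in untreated, 690 to 997 in Rspo1-negative and 820 to 1921 CPM in Rspo1-positive libraries. All 10 cycling markers rose, with a median of 1.48. The part of these lists in the members' values was not tested.

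Among the largest falls were those of Rps27, Rps14, Rps15, Rpl13a and Rps7. Rps27, a zinc-finger protein of the small subunit, had 626, 395 and 538 CPM in Rspo1-negative libraries at passages 5, 6 and 10 and 279, 231 and 291 CPM in Rspo1-positive ones. No values overlapped, and the gene fell by 0.95 ± 0.17 on the log2 scale (edgeR adjusted p = 0.00219). Rps15, which sits near the decoding centre and is among the highest in FPKM, had 1191, 715 and 960 CPM against 505, 488 and 548 CPM. It fell by 0.88 ± 0.19 (adjusted p = 0.00459). Rps14, Rpl13a and Rps7 fell by 0.92, 0.88 and 0.87 on the same scale. Within passages the members' median difference was -0.86, -0.46 and -0.57 at passages 5, 6 and 10, and at most 3 of the 83 were higher in any passage.

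With the GC and length offset 40 members fell, against 12.8% of all genes, with a median of -0.40; the trend alone gave -0.28. Rps27 kept a fall of 0.71 ± 0.14 (adjusted p = 0.00795), and Rps15, at -0.40, no longer passed (adjusted p = 0.0951). Without the offset the number called went down to 26 when either passage 5 library was left out. It was 43 without the Rspo1-negative library of passage 10 and 45 without the Rspo1-positive library of passage 6. With the offset it was 7 and 9 without the Rspo1-negative libraries of passages 5 and 10, and 13, 13 and 18 without the Rspo1-positive libraries of passages 5, 6 and 10.

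Rspo1-positive and untreated cells did not separate in this family. None of the 83 members passed the edgeR test, where 13.2% of all genes did (6.44% higher and 6.77% lower), and 1 had an unadjusted p under 0.05; DESeq2 also called none. The median log2 fold change was -0.03 (quartiles -0.09 and 0.02), and no member had groups without overlap in CPM, against 11.4% of all genes higher and 11.8% lower. Within passages the median difference was -0.04, -0.29 and 0.24 at passages 5, 6 and 10, with 81 members higher at passage 10 and 2 at passage 6. Each of these sets 1 library against 1 other, so passage and single library cannot be told apart. Rps2 stood at 0.12 ± 0.16, Rplp0 at -0.10 ± 0.18 and Rps4l at -0.32 ± 0.13 (log2, SE). With the offset no member passed either, where 17.4% of all genes did (7.06% higher and 10.3% lower). Proliferation markers moved in this comparison without the family: all 10 cycling markers tested rose, with a median of 3.12, and their summed level was 46.4 to 129 CPM in untreated, 114 to 203 in Rspo1-negative and 474 to 875 in Rspo1-positive libraries. Of the 10 dissociation-response genes 6 rose and 2 fell here, with a median of 0.79. Their part in the members' values was not tested.

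To ask which members departed from the rest, each library was scaled to the summed counts of the family. Against untreated cells, Rpl23 was then the single member called in Rspo1-negative cells. On this scale the median of all genes was -0.63, and 47% of all genes were called lower and 1.33% higher. Rpl23, a large-subunit protein that can bind Mdm2, lies on chromosome 11 from 97777527 to 97782437 (GRCm38, minus strand). It had 429, 478 and 432 CPM in untreated, 455, 392 and 510 CPM in Rspo1-negative and 433, 389 and 451 CPM in Rspo1-positive libraries, so its groups overlapped throughout. Its log2 fold change for Rspo1-negative against untreated was 0.01 ± 0.14 with TMM scaling (adjusted p = 0.963) and -0.61 ± 0.12 relative to the family (adjusted p = 0.00471). The offset fit gave 0.05 ± 0.12.

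In Rspo1-positive cells set against Rspo1-negative ones, 4 members were higher relative to the family and none lower, where 49% of all genes were higher and 0.423% lower: Rpl23 (0.57 ± 0.12), Rpl7l1 (0.47 ± 0.13), Rpl22l1 (0.39 ± 0.13) and Rpl4 (0.31 ± 0.09). The adjusted p-values were 0.00629, 0.0202, 0.0348 and 0.0249. With TMM scaling these genes had log2 fold changes of -0.09, -0.18, -0.27 and -0.34, none past the threshold. Neither scale takes out GC and length effects. In the offset fit, as given above, Rpl22l1 rose by more than the members' median in Rspo1-negative against untreated cells. Rpl4 passed with DESeq2, at -0.37 with an adjusted p of 0.0278, and in a fit of the 6 libraries compared, and with an adjusted p of 0.111 in edgeR with all 9. In each single-library omission of this comparison 1 to 3 members were called relative to the family. Between Rspo1-positive and untreated cells no member departed from the family, against 6.3% of all genes (3.44% higher and 2.85% lower), and none had an unadjusted p under 0.05.

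The balance of the subunits was similar in all groups. The log2 ratio of small-subunit to large-subunit counts was -0.553 ± 0.035 in untreated, -0.511 ± 0.05 in Rspo1-negative and -0.549 ± 0.019 in Rspo1-positive libraries (SD, n = 3). The differences of 0.043 and -0.038 to either side of the Rspo1-negative group had an exact permutation p of 0.3. Leaving out 1 library gave 0.022 (without the Rspo1-negative library of passage 5) to 0.071 (without that of passage 10) for the first, and -0.018 to -0.066 without the same libraries for the second. The difference of 0.0048 between the others had an exact permutation p of 0.8. With mean log2 CPM in place of sums the 2 differences with Rspo1-negative cells changed sign.

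Paralogs and parents are set side by side for Rspo1-negative against untreated cells. Rpl7, which had 674, 783 and 531 CPM in untreated and 1020, 828 and 973 CPM in Rspo1-negative libraries, rose by 0.50 ± 0.18, and its nucleolar relative Rpl7l1 had 0.28 ± 0.12 (adjusted p = 0.0838). Rpl22 rose by 0.58 ± 0.14, and Rpl22l1 had 0.32 ± 0.17 (adjusted p = 0.16). Rps27 rose by 0.75 ± 0.17 and its p53-responsive paralog Rps27l by 0.48 ± 0.17 (adjusted p = 0.048). Rps4l rose by 0.54 ± 0.13, and its X-linked parent Rps4x had 0.43 ± 0.16 (adjusted p = 0.0576). Rpl3, Rpl10 and Rpl39 rose by 0.55, 0.48 and 0.70. The differences between paralog and parent were not tested. Rps4l is a processed pseudogene, so reads of Rps4x could be assigned to it or lost from both. Without the block the calls of Rps4l, Rps27l, Rpl7 and Rps15a were lost, with adjusted p-values of 0.247, 0.2, 0.0668 and 0.0629. In a fit of the 6 libraries alone Rps27l, Rpl7, Rps15a, Rplp0, Rpl3, Rpl10 and Rpl8 did not pass.

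Passage itself moved few members. Between passages 6 and 5 none passed the edgeR test (2.49% of all genes did, 1.16% higher and 1.33% lower), 1 had an unadjusted p under 0.05, DESeq2 called none and the median was -0.14. The groups ran in different directions: the median difference was 0.15 in untreated cells with 80 of 83 members higher, -0.50 in Rspo1-negative cells with 1 higher and -0.11 in Rspo1-positive cells with 15 higher. Without the untreated library of passage 6 the median was -0.33, 55 members had an unadjusted p under 0.05 and 1 fell by the adjusted p. Without the Rspo1-negative libraries of passage 6 or 5 it was -0.01 and -0.05. Between passages 10 and 5 no member rose and 2 fell, Rps4l and Rps27l, where 9.07% of all genes were called (4.57% higher and 4.5% lower). Of the 10 dissociation-response genes 5 fell and none rose, both at passage 6 and at passage 10 against passage 5, and their part was not tested. Rps4l had 30.2, 48.1 and 23.4 CPM at passage 5 and 16.1, 26.7 and 14.6 CPM at passage 10 in untreated, Rspo1-negative and Rspo1-positive cells, lower in each group. It fell by 0.81 ± 0.13 on the log2 scale (adjusted p = 0.00501). Rps27l had 104, 178 and 104 CPM at passage 5 and 62.7, 106 and 77.3 CPM at passage 10, and fell by 0.64 ± 0.17 (adjusted p = 0.0406). Its parent Rps27 had a log2 fold change of -0.12 ± 0.17. Rps27l lost its call without any single one of the 6 libraries of these passages, with adjusted p-values of 0.071 to 0.253. Rps4l lost it without the Rspo1-negative library of passage 5.

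Members with and without the motifs had similar medians. Of the tested members with a start-site sequence, the 33 with a pyrimidine tract had a median log2 fold change of 0.64 for Rspo1-negative against untreated (32 rose), and the 27 without had 0.63 (21 rose). For CCGGAAG the medians were 0.67 in 25 with the motif and 0.59 in 35 without it, and for GCCATNTT 0.58 in 13 and 0.65 in 47. Members counted as without a tract have none beginning within 10 bases of an annotated start, and may carry one elsewhere. These are descriptions of overlapping sets and were not tested.

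Other groups of genes with short transcripts were also higher in Rspo1-negative cells when set against untreated ones. Over all genes 15.5% rose and 20% fell in this comparison, and 9.57% rose and 11% fell with the offset. Of 78 mitochondrial ribosomal protein genes 50 rose and 1 fell (median 0.46, median length 1302 bases). Of 75 oxidative phosphorylation genes 48 rose and none fell (0.49, 765 bases), and of 37 proteasome genes 14 rose and 1 fell (0.22, 1540 bases). With the offset the medians were 0.28, 0.24 and 0.22, beside 0.37 for the cytosolic ribosomal proteins. Of 22 genes from a list of mainly translation genes known for pyrimidine tracts 12 rose and 2 fell, with a median of 0.41. Whether each has a tract by the definition above was not examined. The elongation factor genes Eef1b2, Eef1g and Eef2 rose by 0.64, 0.68 and 0.51, and Eif3h and Eif3k, of the initiation factor eIF3, by 0.67 and 0.77. Eif3a, the long scaffold subunit of eIF3, fell by 1.18 and Npm1, a nucleolar chaperone of assembly, by 0.39. With the offset 5 genes of this list rose and 1 fell, with a median of 0.30. Eef1b2 and Eif3k kept their calls at 0.75 and 0.40, while Eef2 (0.25), Eef1g (0.44) and Eif3h (0.43) did not pass (adjusted p = 0.347, 0.0583 and 0.0528). Eif3a stood at -0.63 and Npm1 at -0.04 in that fit. Of 39 tested -ps pseudogenes of ribosomal proteins 8 rose; all 243 together took 0.0058 to 0.011% of counts.

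Ribosome biogenesis genes had another pattern. Of 41 tested, 13 rose and 6 fell in Rspo1-negative against untreated cells (median 0.14), 17 rose and 5 fell in Rspo1-positive against Rspo1-negative cells (0.21), and 13 rose and none fell in Rspo1-positive against untreated cells (0.30). Over all genes 15.5% rose and 20% fell in the first of these comparisons, 21.5% and 17.4% in the second, and 6.44% and 6.77% in the third. Ncl, which encodes nucleolin, had 471 ± 138, 279 ± 67.9 and 655 ± 93.1 CPM (SD, n = 3) in untreated, Rspo1-negative and Rspo1-positive cells. It fell by 0.74 in Rspo1-negative cells (adjusted p = 0.00659) and was at 0.50 in Rspo1-positive cells (adjusted p = 0.0738). With the offset the sign of the first turned, to 0.13 (adjusted p = 0.528), and the second was 0.43 (adjusted p = 0.0459). Gar1, of the RNA pseudouridylation machinery, and Nolc1 rose by 0.73 and 0.65 in Rspo1-positive against untreated cells. Nhp2, a partner of Gar1, instead rose by 0.80 in Rspo1-negative cells. With the offset 7 biogenesis genes rose and 3 fell in the first comparison (median 0.20), 12 and 5 in the second (0.13), and 15 and none in the third (0.27). The shares of all genes with the offset were 9.57% higher and 11% lower, 11% and 12.8%, and 7.06% and 10.3% in that order.

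**Figure D5:**
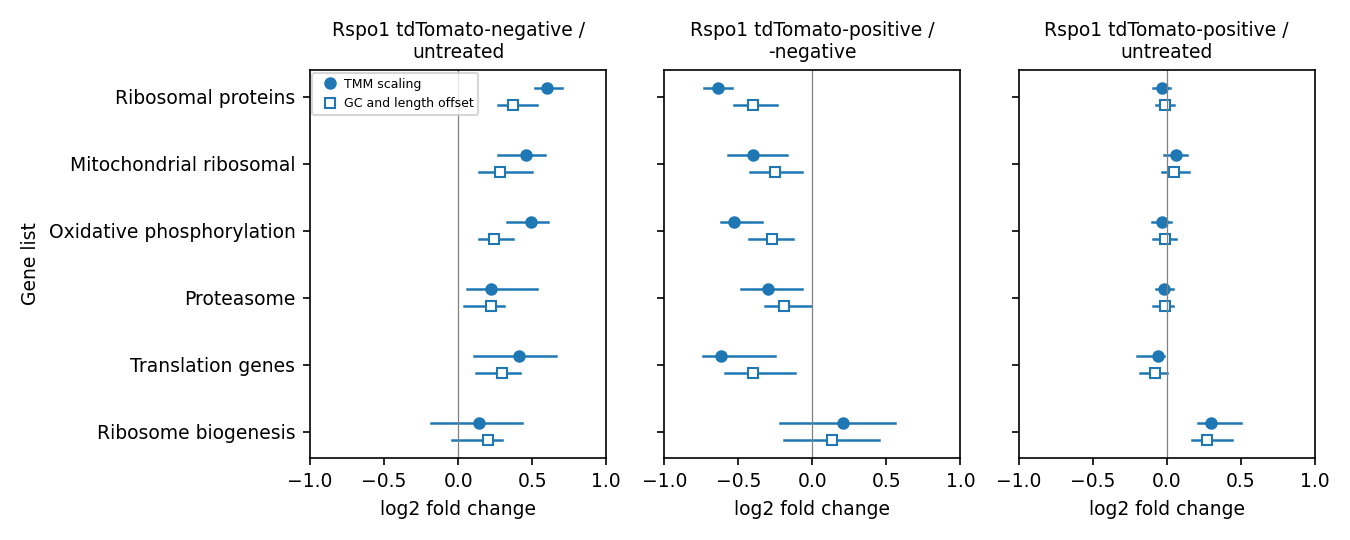
Median log2 fold change (points) and quartiles (lines) of 6 gene lists in the 3 comparisons, with TMM scaling (filled circles) and with the GC and length offset (open squares). The ribosomal proteins have medians of 0.60 and 0.37 in the first panel and near 0 in the third, where ribosome biogenesis genes have 0.30 and 0.27.

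The authors' deposited table holds 81 members. In it, set against untreated cells, Rspo1-negative cells had 73 members higher and none lower at an adjusted p under 0.05, with a median of 0.62, where 29.3% of its genes passed. For Rspo1-positive against Rspo1-negative cells the authors' deposited table had 78 lower and none higher, with a median of -0.66, where 45.8% passed. For Rspo1-positive against untreated cells the authors' deposited table had no member past that threshold, where 14.7% of its genes passed.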

How the data were processed

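Raw counts and FPKM per gene were deposited by the authors for each library, per the file headers, as were tables of log2 fold changes and adjusted p-values for the 3 comparisons. The submitters' processing notes name Trimmomatic 0.35, FastQC 0.11.2, STAR 2.5.1b, featureCounts, DESeq2 and the build GRCm38; the strand setting is not given in the sources used here, so overlapping genes on opposite strands cannot be told apart. FPKM entered no test.

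Counts were fitted in R 4.3.3 with edgeR 4.0.16 (filterByExpr, minimum count 10; TMM; quasi-likelihood F-test; group and passage; 9 libraries; Benjamini-Hochberg over 17011 genes, threshold 0.05). SE is the log2 fold change divided by the square root of F. Same-passage libraries deviated together (r 0.123 to 0.573 in 9 pairs; -0.476 to 0.0826 in 18 others), so passage pairs them. The GC and length offset used natural splines (5 degrees of freedom each) of GENCODE M21 transcripts over non-members. The fits were tested on simulated data. The simulated trend came from the same splines, so this cannot show whether the offset suits the members. Exact permutation tests used scipy 1.17.1 and did not pair libraries by passage. Named genes are the 6 largest called changes per comparison, P-stalk and SA genes, paralogs with parents, FPKM extremes, members called relative to the family sum, passage calls and ribosomal genes outside the name rule, some of which are not reported here; Rps20, Rpl5 and the genes of other lists were named after their values were seen. The members and lists were chosen with earlier results of these data known.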

Additional observations from a re-analysis of the deposited data

How the results depend on the processing

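Scaling by upper quartile or RLE, TMM without the members, DESeq2, no filter, no passage term and fits of the 6 libraries compared kept every count of members called within 1.5 times of the reported one and every median of a called comparison on its side of 0. Without the passage term (no replicate block) 64, 67 and 0 members were called, and with the offset 18 and 21 in place of 35 and 40; relative to the family sum 2 in place of 4. The offset gave 35 and 40 calls in place of 72 and 75 (36 and 38 with length from the deposited FPKM, chosen after seeing the data), and a median of -0.40 (-0.39) in place of -0.64 for Rspo1-positive against Rspo1-negative cells. Without 1 library, 13 to 80 members were called for Rspo1-negative against untreated cells and 26 to 79 for Rspo1-positive against Rspo1-negative cells; with the offset, 7 to 75 and 7 to 52; relative to the family sum, 1 to 3 in both; for passage 6 and passage 10 against passage 5, 0 to 1 each. The share difference of Rspo1-positive against untreated, 0.0096 percentage points, became -0.013 over tested genes without mitochondrial ones and -0.15 to 0.26 without 1 library. Without the genes of the rRNA locus, a choice made after seeing the data, it was 0.29 (exact permutation p = 0.2). The small-to-large ratio difference became -0.0044 and 0.01 with mean log2 CPM, and for Rspo1-positive against untreated -0.015 to 0.016 without 1 library. Rpl23 in Rspo1-negative against untreated cells had -0.08 to 0.15 without 1 library. Causes were not tested. Single members' calls kept side and direction in 765 of 988 alternatives. The 6 members with at most 20 counts in any library are too shallow for a comparison.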
